A study of Mus musculus with 20 samples.

Results

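The genes described here are 10 surface and adhesion molecules of plasma cells (Sdc1, Cd44, Pecam1, Epcam, Slamf7, Cd93, Cd9, Cd47, Cd48 and Cd38), followed across 4 times of day in IgA+ plasma cells (IgA+ PCs) of the mouse small intestine. They were taken from a table of 47069 genes by their symbols, and all 10 were among the 13967 genes with enough counts to be tested. They were chosen by symbol with no threshold on a value, but with the time-of-day levels and tests of these same libraries already known, so the counts of genes that passed a test are given as a description of the 10 and not as independent support. The study asked whether the transcriptome of these cells changes over a circadian day. Each of the 20 libraries came from 1 wild type C57BL/6 animal, 5 animals at each of Zeitgeber time (ZT) 0, 6, 12 and 18, where ZT0 is lights on and ZT12 lights off. The p-values therefore measure the spread between animals, 5 per time. No animal carried a transgene or received a treatment, and no age is given in the labels. Cells were released from the lamina propria with Collagenase D and DNase I and sorted as CD138+ IgA+ by flow cytometry, so the protein product of Sdc1 was itself part of the gate.

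Plasma cells are the terminal, antibody-secreting stage of the B cell lineage, and those of the gut lamina propria export mostly dimeric IgA into the lumen. As they differentiate they lose most B cell surface receptors and gain others that hold them in survival niches. Syndecan-1 (CD138, encoded by Sdc1) is a transmembrane heparan sulfate proteoglycan that binds growth factors and cytokines and can be shed by surface proteases. Heparan sulfate chains, hyaluronan, immunoglobulin-like domains and tetraspanin webs are the main ways in which the molecules described here contact matrix, other cells or one another.

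Libraries held between 35570619 and 68018407 counts, of which 58.0 to 67.7% fell on immunoglobulin genes. Levels are given as CPM, a gene's share of the library's counts, after TMM scaling (trimmed mean of M values, which sets libraries level on the bulk of genes), written TMM CPM, with scaling factors between 0.863 and 1.17. All 10 plasma cell markers were tested, led by Igha at a mean of 292298 TMM CPM. Sums over marker lists of other cells were far below Igha. They were 1.93 to 4.22 TMM CPM for 12 endothelial markers, 6.34 to 56.4 for 20 epithelial markers and 2.39 to 71.1 for 12 Paneth and goblet cell markers. The 12 macrophage and dendritic cell markers summed to 82.0 to 132, and 9 granulocyte and mast cell markers to 68.8 to 124, mostly Prg2 (mean 87.9). The 12 T cell and innate lymphoid markers summed to 22.9 to 34.3 and the 10 B cell markers to 14.3 to 22.8. In every library the macrophage and dendritic cell sum lay above Pecam1, Epcam, Cd48, Cd9 and Cd38, and its part in their levels was not tested. TMM CPM is not scaled by gene length. A gene's place above or below a marker sum therefore does not give the share of its RNA from those cells. The most epithelial counts were in ZT12 replicate 2, ZT6 replicate 4 and ZT18 replicate 3, and the most heat shock counts were in ZT12 replicate 5 (5112 TMM CPM over 10 genes), ZT18 replicate 2 (3617) and ZT12 replicate 4 (2313). The 10 immediate early genes measured, which respond within minutes to stimulation or handling, summed to 4490 to 8010 TMM CPM at ZT0 and 2189 to 3989 at ZT6, with 4653 to 7346 at ZT12 and 3101 to 3875 at ZT18. Each library is bulk RNA, so fewer cells of a type and less RNA per cell cannot be told apart.

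On GRCm38 (GENCODE) the genes lie apart from one another except for Slamf7 and Cd48. Sdc1 is at chr12:8771323-8793715 on the plus strand and Cd44 at chr2:102811141-102901665 on the minus strand, as is Cd93 at chr2:148436640-148443563. Pecam1 is at chr11:106654217-106750628 (minus), Epcam at chr17:87635979-87651129 (plus), Cd9 at chr6:125460266-125494791 (minus), Cd47 at chr16:49800533-49915010 (plus) and Cd38 at chr5:43868553-43912375 (plus). Slamf7 at chr1:171632403-171653035 (minus) and Cd48 at chr1:171682009-171705258 (plus) are neighbours.

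Levels of different genes can be compared only per length, for which the deposited FPKM values (fragments scaled by gene length and library size) were used. Sdc1 was the most abundant of the 10, at a mean of 524 FPKM (432 to 585 over the 20 libraries) and rank 169 of 18886 genes. Slamf7, a SLAM family receptor that is a therapeutic target on malignant plasma cells in humans, averaged 139 FPKM (126 to 158). Cd44, the main receptor for hyaluronan, averaged 103 FPKM (81.6 to 129). These 3 ranked among the first 527 genes, and the libraries of Sdc1 lay wholly above those of Slamf7, whereas Slamf7 and Cd44 overlapped.

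In the deposited FPKM the middle group lay several-fold lower. Cd47, whose product signals "do not eat me" to phagocytes through SIRPα, averaged 29.9 FPKM (24.6 to 34.3). Epcam, an adhesion molecule best known from epithelium, averaged 24.8 FPKM (21.9 to 28.4), and Cd93, a C-type lectin-like transmembrane protein that supports the persistence of plasma cells in mouse bone marrow, 23.7 FPKM (18.5 to 28.4). Cd48, the GPI-anchored ligand of CD244 and CD2, averaged 19.4 FPKM (14.4 to 22.9). Each of these 4 overlapped its neighbour in the order, so neighbouring places are not separated by the libraries, although Cd47 lay wholly above Cd48. Pecam1 (CD31, a homophilic immunoglobulin superfamily molecule) averaged 11.6 FPKM, Cd9 (a tetraspanin) 7.50 FPKM and Cd38 (an ectoenzyme that consumes NAD) 3.16 FPKM, the last at rank 7637. The lengths behind the deposited FPKM were shorter than the merged exons of a gene in 9 of the 10, by up to 2.61-fold for Sdc1. With merged exon lengths Cd47 stood at 14.6 FPKM in place of 29.9 and moved from place 4 to place 7, while the 3 leading and 3 last genes kept their places. The gap between the leading and middle genes was then narrower, with Cd44 at 42.5 FPKM, Cd93 at 23.7 and Epcam at 23.0.

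**Figure D1:**
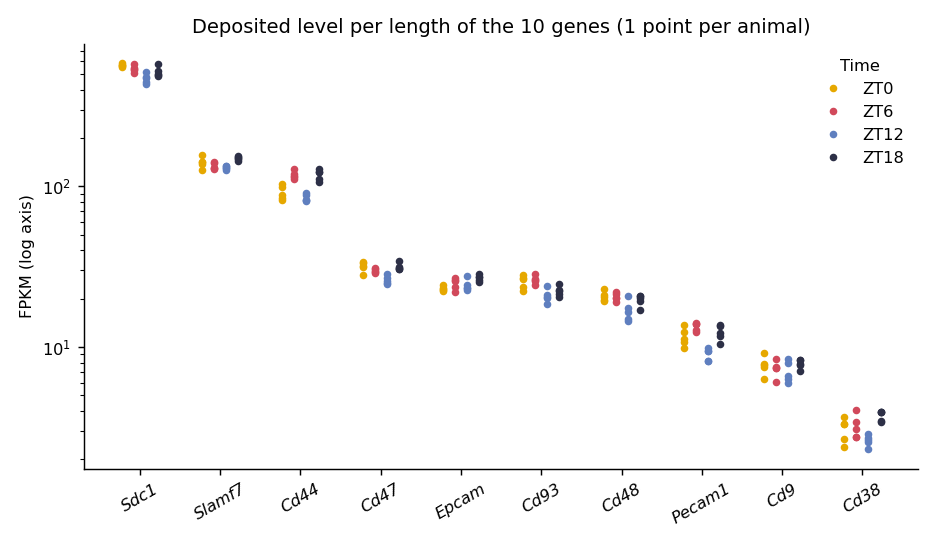
Deposited FPKM (vertical, log axis) of the 10 genes, ordered by mean, with 1 point per animal and colours for ZT0, ZT6, ZT12 and ZT18. Sdc1 stands at 432 to 585 FPKM and Cd38 at 2.30 to 4.04 FPKM, and the spread over times within a gene is small against the distance between the first 3 genes and the others.

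The courses of the 10 genes over the day were shallow. The highest mean of a gene over its lowest ranged between 1.08-fold (Sdc1) and 1.37-fold (Cd44 and Pecam1). The genes Cd44, Pecam1, Epcam, Slamf7 and Cd93, 5 of the 10, passed the test for any difference among the 4 times (edgeR quasi-likelihood F test, Benjamini-Hochberg adjusted over all genes tested, call at adjusted p under 0.01), where 19.5% of all genes tested passed. The other 5, Cd47 (adjusted p = 0.0143), Cd38 (0.0144), Sdc1 (0.218), Cd48 (0.288) and Cd9 (0.657), did not pass this edgeR test. On simulated counts the same test recovered 34.0% of genes changed 1.3-fold, so a gene that missed the threshold here is not shown to be level. The set of 5 depended on the setting. Over 12 other settings Cd44 passed the any-time test in 12, Pecam1 in 11, Epcam in 10, Slamf7 in 9 and Cd93 in 8. Of the 5 that missed it, Cd47 passed in 3, Cd38 in 1 and Sdc1 in 1. Library totals also passed 5 of the 10, but Epcam was not among them.

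**Figure D2:**
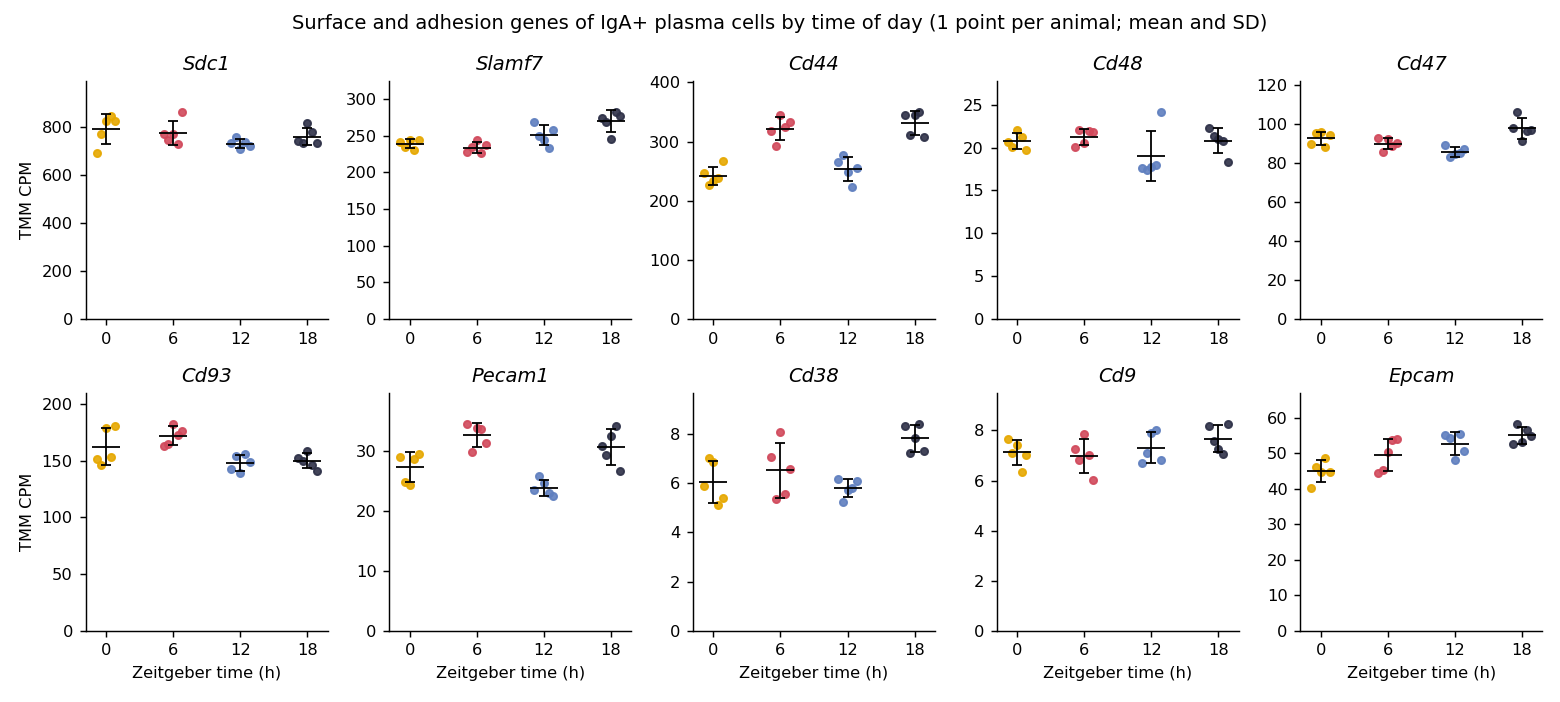
TMM CPM (vertical, from 0) of the 10 genes by Zeitgeber time in hours (horizontal), 1 point per animal, with bars for the mean and SD of 5 animals. Cd44 lies between 292 and 350 at ZT6 and ZT18 and between 223 and 278 at ZT0 and ZT12, while Sdc1 stays between 693 and 862 at all 4 times.

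Cd44 showed the clearest course, high in the middle of the light and of the dark phase and low at both light transitions. Its 5 libraries held 247, 227, 233, 238 and 267 TMM CPM at ZT0. At ZT6 they held 317, 292, 345, 325 and 332 TMM CPM, and at ZT12 265, 278, 249, 223 and 256 TMM CPM. At ZT18 the values were 345, 312, 345, 350 and 307 TMM CPM. Every library of ZT6 and ZT18 was above every library of ZT0 and ZT12, and neither ZT18 and ZT6 nor ZT12 and ZT0 were set apart. The log2 fold change was 0.41 ± 0.055 (SE) for ZT6 over ZT0 (edgeR adjusted p = 1.79e-06), -0.34 ± 0.055 for ZT12 over ZT6 (8.47e-05), 0.39 ± 0.055 for ZT18 over ZT12 (3.55e-06) and 0.45 ± 0.055 for ZT18 over ZT0 (1.16e-06). For ZT18 over ZT6 it was 0.041 (edgeR adjusted p = 0.689) and for ZT12 over ZT0 0.067 (0.534). The last of these turned to -0.11 when libraries were scaled by their totals, and passed under neither scaling. The mean of ZT6 and ZT18 exceeded the mean of ZT0 and ZT12 by 0.40 ± 0.039 on the log2 scale (edgeR adjusted p = 2.33e-08), a contrast added after the values had been seen, in which 9.45% of all genes tested passed, 5.11% higher and 4.34% lower.

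Pecam1, whose product mediates contact between leukocytes and endothelium, followed a similar course at a lower level. Pecam1 stood at 28.9, 24.7, 24.3, 28.7 and 29.5 TMM CPM at ZT0 and at 34.5, 29.8, 33.7, 33.6 and 31.2 TMM CPM at ZT6. It stood at 23.5, 25.8, 24.6, 22.9 and 22.4 TMM CPM at ZT12 and at 30.7, 29.3, 32.5, 34.2 and 26.6 TMM CPM at ZT18. ZT6 lay wholly above ZT0 and ZT12, and ZT18 lay wholly above ZT12 but overlapped ZT0 through replicates 2 and 5. The log2 fold change was 0.26 ± 0.067 (SE) for ZT6 over ZT0 (edgeR adjusted p = 0.00643), -0.45 ± 0.067 for ZT12 over ZT6 (4.04e-05) and 0.36 ± 0.068 for ZT18 over ZT12 (1.73e-04). ZT18 over ZT0 was 0.17 (edgeR adjusted p = 0.0893), and the mean of ZT6 and ZT18 exceeded that of ZT0 and ZT12 by 0.31 ± 0.048 (1.50e-05). The rise at ZT6 over ZT0 was lost with library totals (0.21, adjusted p = 0.0916) and in 5 of 20 fits without 1 library, with adjusted p up to 0.0304 without ZT0 replicate 2. Of the 12 endothelial markers 11 averaged under 1 TMM CPM and none passed the any-time test. Their sum was 3.03 to 4.22 TMM CPM at ZT0 and 2.73 to 3.74 at ZT6, with 2.28 to 2.98 at ZT12 and 1.93 to 3.29 at ZT18. It was below Pecam1 in every library on this scale, which is not per length. The macrophage and dendritic cell markers summed to 82.0 to 132 TMM CPM, above Pecam1 in every library, and their part in its level was not tested.

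The summed level of the 10 immediate early genes was low at the times when Cd44 was high. Of these genes 7 passed the any-time test and Nr4a1, Egr2 and Egr1 did not, and the sum at ZT6 and ZT18 did not exceed 3989 TMM CPM, against at least 4490 at ZT0 and ZT12. At ZT0 Cd44 fell with each rise of the sum. Sums of 4490, 4704, 6661, 7965 and 8010 went with 267, 247, 238, 233 and 227 TMM CPM of Cd44. At ZT12 sums of 4653, 5140, 5516, 5764 and 7346 went with 278, 265, 249, 256 and 223. There the order was broken between 5516 and 5764. The order was not kept at ZT6 either, where sums of 2189, 2211, 2391, 2946 and 3989 went with 317, 332, 345, 325 and 292. Nor was it kept at ZT18, where replicates 5 and 4, with 3209 and 3663, held 307 and 350. With that sum as a covariate, an alternative added after seeing the data, the contrast of ZT6 and ZT18 with ZT0 and ZT12 fell to 0.18 for Cd44 (edgeR adjusted p = 0.378) and 0.11 for Pecam1 (0.793), and 1 gene of the whole table passed it. Since the sum separates ZT6 and ZT18 from ZT0 and ZT12 without overlap, the time of day and the immediate early level cannot be told apart.

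**Figure D3:**
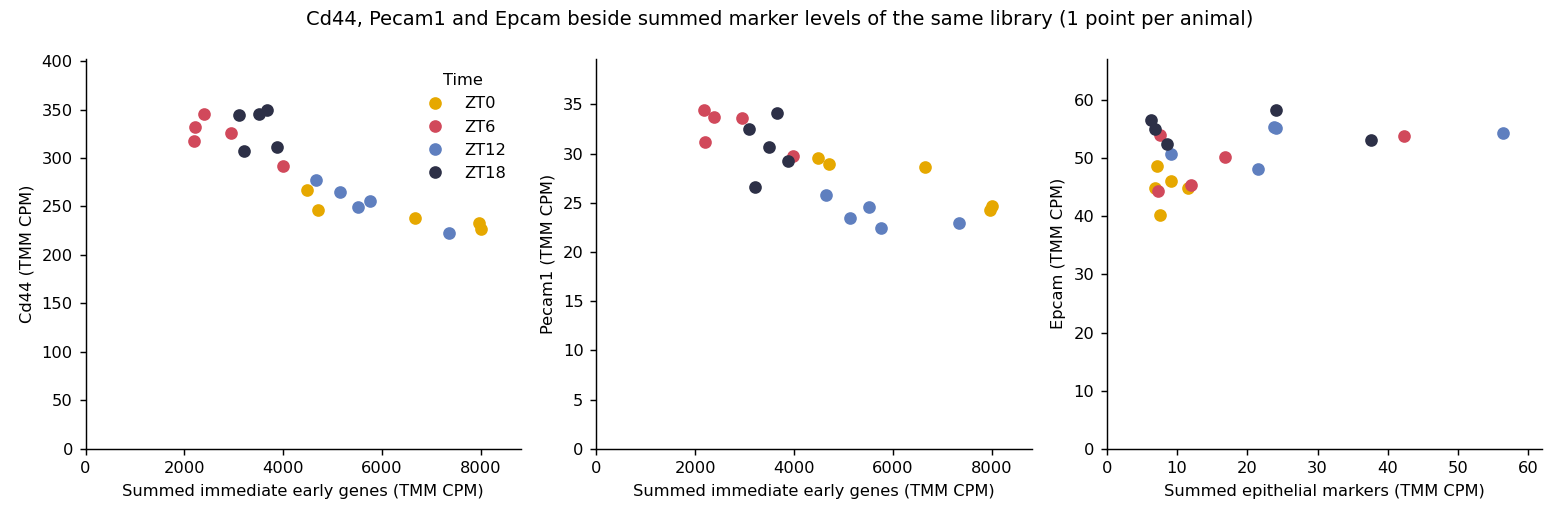
TMM CPM of Cd44 (left) and Pecam1 (middle) against the summed TMM CPM of 10 immediate early genes, and of Epcam (right) against the sum of 20 epithelial markers, 1 point per animal, coloured by time. The ZT6 and ZT18 libraries lie at or below 3989 on the immediate early axis and high in Cd44, whereas Epcam is 56.6 and 55.0 in the 2 ZT18 libraries with epithelial sums of 6.34 and 6.86.

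Epcam was higher at ZT18 than at ZT0. It stood at 40.2, 46.1, 44.8, 48.7 and 44.9 TMM CPM at ZT0 and at 44.4, 45.4, 50.3, 53.9 and 54.1 TMM CPM at ZT6. At ZT12 it stood at 55.1, 54.3, 48.2, 55.4 and 50.6 TMM CPM, and at ZT18 at 52.5, 58.4, 53.1, 56.6 and 55.0 TMM CPM. All 5 libraries of ZT18 were above all 5 of ZT0, while ZT6 spread over both ranges. The log2 fold change for ZT18 over ZT0 was 0.29 ± 0.060 (SE; edgeR adjusted p = 7.87e-04), and that for ZT12 over ZT0, 0.23 ± 0.060, missed the threshold (0.0120). The steps from light onset to the middle of the dark phase did not pass one by one: ZT6 over ZT0 was 0.14 (edgeR adjusted p = 0.108), ZT12 over ZT6 0.088 (0.399) and ZT18 over ZT12 0.064 (0.520). Scaling by library totals ended the any-time call (adjusted p = 0.0596) and that of ZT18 over ZT0 (0.22, 0.0313), which stayed positive, while ZT12 over ZT6 turned to -0.036 (0.783).

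Epithelial RNA was measured in the same libraries, since Epcam marks epithelium. The 20 epithelial markers summed to 6.84 to 11.6 TMM CPM at ZT0 and 7.25 to 42.3 at ZT6, with 9.15 to 56.4 at ZT12 and 6.34 to 37.6 at ZT18; 15 of the 20 averaged under 1 TMM CPM, the most abundant was Krt8 at 2.96, and none passed the any-time test. In TMM CPM, which is not scaled by gene length, Epcam exceeded the whole sum in 19 of 20 libraries. In ZT18 replicates 4 and 5, with sums of 6.34 and 6.86, Epcam stood at 56.6 and 55.0 TMM CPM. Without the 3 libraries richest in epithelial counts ZT18 over ZT0 was 0.31 (edgeR adjusted p = 0.00127), and with the epithelial sum as a covariate it was 0.28 (0.00219). A separate list of 12 Paneth and goblet cell markers summed to 4.56 to 10.9 TMM CPM at ZT0 and 6.62 to 71.1 at ZT6. At ZT12 it summed to 6.00 to 27.1 and at ZT18 to 2.39 to 32.7, and its part in Epcam was not tested.

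Slamf7 was highest in the middle of the dark phase. Its libraries held 242, 234, 245, 231 and 244 TMM CPM at ZT0 and 228, 234, 244, 226 and 237 TMM CPM at ZT6. They held 269, 249, 244, 234 and 258 TMM CPM at ZT12 and 275, 268, 245, 282 and 277 TMM CPM at ZT18. Even its lowest ZT18 library, replicate 3, lay just above the highest of ZT0 and ZT6. The log2 fold change was 0.21 ± 0.045 (SE) for ZT18 over ZT6 (edgeR adjusted p = 0.00148) and 0.17 ± 0.045 for ZT18 over ZT0 (0.00803). ZT18 over ZT12 was 0.10 (edgeR adjusted p = 0.108). Its coefficient of variation within a time was 2.62 to 5.4%. Library totals left ZT18 over ZT6 at 0.17 (adjusted p = 0.0625) and ZT18 over ZT0 at 0.088 (0.367), and the any-time call was lost without ZT18 replicate 4 (0.0129). That of ZT18 over ZT0 was lost in 9 of 20 fits without 1 library, with adjusted p up to 0.0315 without the same replicate. An antisense gene, Gm37787, shares 423 exon bases with Slamf7 at a median of 34.0 counts per library, against 8072 to 16252 counts for Slamf7, and whether counting used strand is not given in the sources used here.

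Cd93 had its higher values in the light phase. Cd93 held 151, 146, 179, 153 and 180 TMM CPM at ZT0 and 163, 165, 182, 173 and 176 at ZT6, with 143, 154, 139, 156 and 149 at ZT12, and 153, 150, 158, 146 and 141 at ZT18. ZT6 lay wholly above ZT12 and ZT18, whereas ZT0 fell into 3 libraries near the dark-phase values and 2 near the ZT6 values. No pair of times passed the test, the nearest being ZT12 over ZT6 (log2 fold change -0.21 ± 0.056 SE, edgeR adjusted p = 0.0115) and ZT18 over ZT6 (-0.20 ± 0.056, 0.0131). The any-time call (adjusted p = 0.00756) was lost in 8 of 20 fits without 1 library, with adjusted p up to 0.0284 without ZT6 replicate 3. The endothelial markers, read beside Cd93 because endothelium also expresses it, summed to at most 4.22 TMM CPM.

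With TMM, Epcam, Slamf7 and Cd93 were also the members that passed a fit of a single daily cycle. In that fit with a 24-hour cosine, which 11.3% of all genes tested passed, Epcam peaked at ZT14.2 with a peak-to-trough fold of 1.21 (edgeR adjusted p = 0.00326), Slamf7 at ZT16.8 with 1.16 (0.00222) and Cd93 at ZT3.8 with 1.18 (0.00768). The Cd93 call was lost in 11 of 20 fits without 1 library, with adjusted p up to 0.0232 without ZT18 replicate 5, and that of Epcam in 1 of 20 (0.0103, without ZT0 replicate 1). A fit of the cosine and sine terms alone passed 1 of the 10, Slamf7, and library totals passed 4. Over 12 other settings of the cosine test, Epcam passed in 7, Slamf7 in 9 and Cd93 in 6. Sdc1, Pecam1 and Cd47, which did not pass with TMM, passed in 1 each. Cd44 had a cosine fold of 1.06 (edgeR adjusted p = 0.555). The rank test JTK, with each library used once, passed none of the 10 (Slamf7 adjusted p = 0.0354) and 123 genes in all, where edgeR gave an unadjusted p under 0.05 for 5 of the 10. Sampling at 4 times of day can place a peak only coarsely.

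The start regions of the called genes are shown to set them beside their courses. RefSeq promoter windows on GRCm38.p6, 250 bases before to 50 after a transcript start, were held for 8 of the 10 genes and for 3 of the 5 called, namely Cd44, Epcam and Slamf7. Capitals mark matches, on either strand, to 6 motifs: the E-box CACGTG, the D-box TTATGTAA, the ROR half-site AGGTCA, the AP-1 site TGACTCA, the CRE TGACGTCA and the GC box GGGCGG.
Cd44, chr2:102901616-102901915, minus strand: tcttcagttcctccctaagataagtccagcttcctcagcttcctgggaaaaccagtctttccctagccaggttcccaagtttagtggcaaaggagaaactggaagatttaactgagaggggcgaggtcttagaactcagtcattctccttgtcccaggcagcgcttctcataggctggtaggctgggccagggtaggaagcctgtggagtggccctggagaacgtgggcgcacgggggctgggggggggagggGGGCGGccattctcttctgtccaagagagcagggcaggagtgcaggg
Epcam, chr17:87635729-87636028, plus strand: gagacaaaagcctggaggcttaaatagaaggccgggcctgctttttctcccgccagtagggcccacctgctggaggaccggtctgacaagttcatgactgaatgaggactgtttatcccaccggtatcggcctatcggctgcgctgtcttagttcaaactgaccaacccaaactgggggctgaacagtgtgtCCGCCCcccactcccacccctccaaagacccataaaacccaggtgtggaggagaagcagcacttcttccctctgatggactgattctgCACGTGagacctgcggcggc
Slamf7, chr1:171648950-171649249, minus strand: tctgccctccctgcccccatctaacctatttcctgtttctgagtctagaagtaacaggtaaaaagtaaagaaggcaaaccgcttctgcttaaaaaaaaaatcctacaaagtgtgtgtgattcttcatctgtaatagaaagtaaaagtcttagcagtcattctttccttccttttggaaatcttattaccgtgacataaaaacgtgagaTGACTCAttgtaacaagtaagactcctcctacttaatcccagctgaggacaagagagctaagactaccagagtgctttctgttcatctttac

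The Epcam window held 1 E-box, 30 bases after the start, and a GC box on the other strand. The Slamf7 window held 1 AP-1 site, whose first base is at -42, and the Cd44 window 1 GC box at 3. Of 32851 RefSeq windows of this length, 7.15% held the E-box letters, 5.20% the AP-1 letters and 35.7% the GC box letters. No D-box (0.938% of windows), ROR half-site (16.3%) or CRE (1.79%) letters were in the window of any of the 8 genes, and the GC box was also in those of Cd47, Cd9 and Sdc1. The RefSeq start of Slamf7 lies inside the gene as GENCODE draws it, so other starts exist. These are letter matches, and no binding was measured.

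The calls for Sdc1 depended on the scale. In TMM CPM its libraries held 693, 769, 823, 844 and 824 at ZT0 and 772, 746, 769, 727 and 862 at ZT6, with 731, 759, 709, 735 and 722 at ZT12 and 740, 733, 815, 777 and 735 at ZT18. The groups overlapped at every pair of times, and no pair passed. ZT12 over ZT0 was -0.11 ± 0.046 (SE, log2; edgeR adjusted p = 0.143), but -0.16 without ZT0 replicate 1, the lowest library of that time, where it passed (0.00890). In the deposited FPKM the same libraries held 432, 473, 478, 515 and 448 at ZT12, against 553, 568, 569, 562 and 585 at ZT0. They did not overlap, as was so for 7.89% of 13744 genes on that scale (7.39% lower at ZT12), and limma on log2(FPKM + 1) did not pass the difference (-0.28, adjusted p = 0.0114). Scaled by library totals the difference was -0.27 (adjusted p = 2.25e-04), and the median of all genes then moved by -0.17 in the same contrast, against -0.0020 with TMM. The study had already analysed these libraries, so the course of Sdc1 is not independent evidence. The paper reports that CD138 protein in IgA+ PCs differed between ZT0 and ZT12. Its text does not give the direction, and protein is a different measure from the RNA described here. The TMM-scaled values set the change of Sdc1 against the bulk of genes, and those by totals set it against a total that is mostly immunoglobulin RNA.

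With TMM no gene of the 10 passed ZT12 over ZT0, where 3.86% of all genes tested passed, 1.96% higher and 1.90% lower. Of the 10, 5 had an unadjusted p under 0.05 in edgeR, and 1 passed in DESeq2 (Epcam higher, log2 fold change 0.23) and 1 in limma on FPKM (Cd47 lower, -0.27). With library totals 6.87% of all genes tested passed, 6.59% being lower, and 4 of the 10 passed, all lower: Pecam1 (-0.36, adjusted p = 0.00276), Cd93 (-0.29, 0.00470), Cd47 (-0.28, 0.00208) and Sdc1. Slamf7 turned to -0.11 under library totals, with 0.067 under TMM, and passed under neither.

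**Figure D4:**
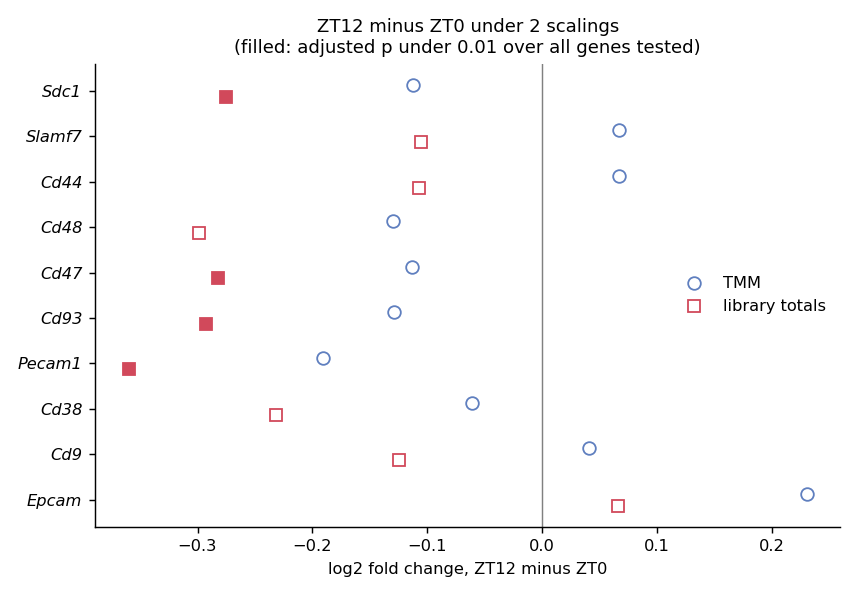
Log2 fold change of ZT12 over ZT0 (horizontal) for the 10 genes with TMM scaling (blue circles) and with library totals (red squares); filled symbols passed at adjusted p under 0.01 over all genes tested. Every gene lies further left with library totals, and Pecam1, Cd93, Cd47 and Sdc1 pass only there.

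Cd47 and Cd38 were both higher at ZT18 than at ZT12, where 9.94% of all genes tested passed (4.80% higher and 5.14% lower) and 4 of the 10 did, the others being Cd44 and Pecam1. Cd47 held 98.0, 106, 91.2, 96.6 and 96.7 TMM CPM at ZT18, against 89.0, 83.0, 84.4, 85.0 and 87.0 at ZT12. Cd38 held 8.30, 7.23, 7.84, 8.41 and 7.30 TMM CPM at ZT18, against 6.16, 5.25, 5.71, 5.81 and 6.08 at ZT12. Neither gene overlapped between these times, as did 12.6% of all genes tested. The log2 fold change was 0.19 ± 0.048 (SE) for Cd47 (edgeR adjusted p = 0.00420) and 0.43 ± 0.12 for Cd38 (0.00751). At ZT0 and ZT6 Cd47 stood between 85.5 and 95.8 and Cd38 between 5.10 and 8.07 TMM CPM, with coefficients of variation up to 17.1% for Cd38, whose 170 to 404 counts per library were the fewest of the 10. Without 1 library the call was lost in 5 of 20 fits for Cd47 (adjusted p up to 0.0262, without ZT18 replicate 2) and in 8 of 20 for Cd38 (up to 0.0250, without ZT12 replicate 2). Over 12 other settings this contrast passed in 6 for Cd47 and in 8 for Cd38. Macrophage and dendritic cell markers, cells in which both genes are also expressed, ran the other way, at 91.3 to 106 TMM CPM at ZT18 and 111 to 128 at ZT12, with 2 of 12 past the any-time test; their part in these values was not tested.

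**Figure D5:**
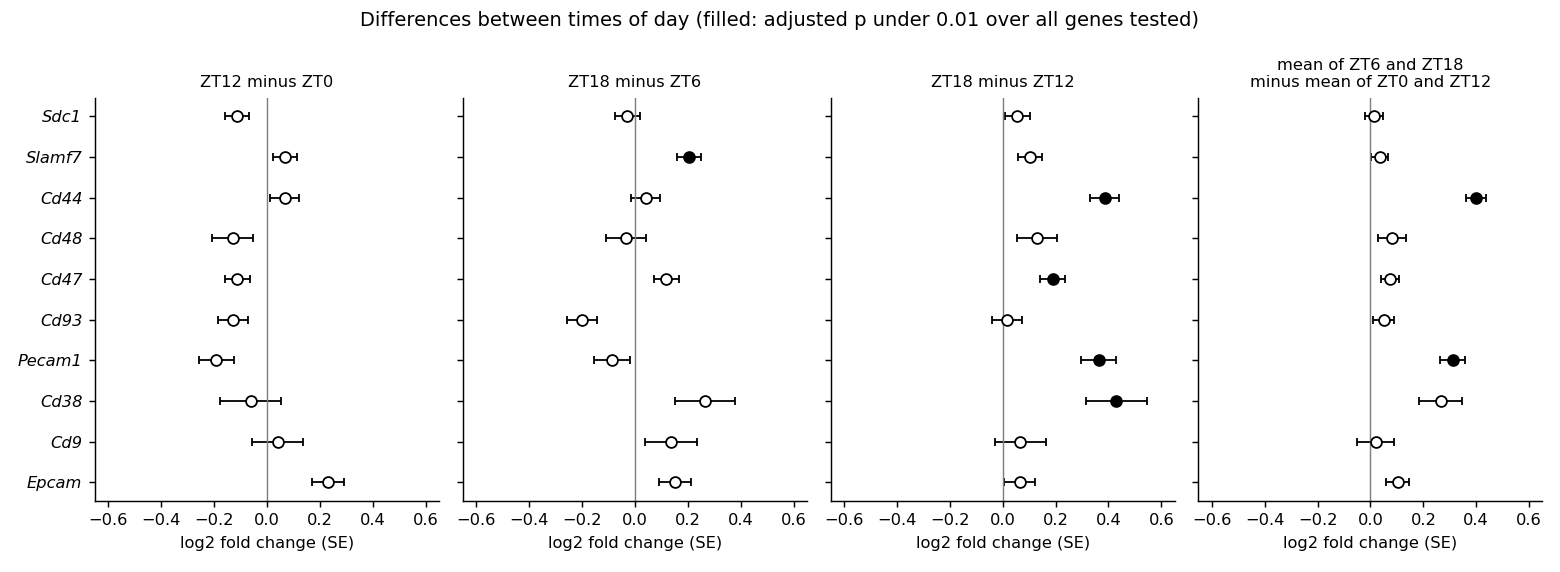
Log2 fold change with SE of the 10 genes in 4 contrasts, filled where the adjusted p over all genes tested was under 0.01. Slamf7 alone is filled in ZT18 minus ZT6, none in ZT12 minus ZT0, 4 genes in ZT18 minus ZT12, and Cd44 (0.40) and Pecam1 (0.31) in the contrast of ZT6 and ZT18 with ZT0 and ZT12.

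Over the remaining pairs the calls were few. Of the 10, 2 (Cd44 and Pecam1, both higher) passed ZT6 over ZT0, where 8.78% of all genes tested passed, 4.65% higher and 4.13% lower. Both were lower in ZT12 over ZT6, which 4.58% of all genes passed, 2.34% higher and 2.24% lower. Cd44, Epcam and Slamf7, all higher, passed ZT18 over ZT0, as did 7.57% of all genes, 4.19% higher and 3.38% lower. Slamf7, higher, passed ZT18 over ZT6, as did 8.24% of all genes, 4.05% higher and 4.2% lower. Libraries of the 2 times did not overlap for 2 of the 10 in ZT6 over ZT0 (10.3% of all genes), 3 in ZT12 over ZT6 (7.95%), 4 in ZT18 over ZT0 (10.1%), 2 in ZT18 over ZT6 (11.5%) and 0 in ZT12 over ZT0 (7.23%). The shares of higher calls above are for TMM, and with library totals 5.49% of the calls in ZT12 over ZT6 were higher, 24.1% in ZT18 over ZT0, 32.6% in ZT6 over ZT0, 34.6% in ZT18 over ZT6 and 78.1% in ZT18 over ZT12. The median of the 10 was 0.14 for ZT18 over ZT0 and -0.12 for ZT12 over ZT6, beside medians of all genes tested of -0.0070 and -0.0030.

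Cd48 and Cd9 passed no test. Cd48 held 17.6, 17.4, 17.7, 17.9 and 24.1 TMM CPM at ZT12, where 4 libraries lay below all others and replicate 5 above all others; the remaining times spanned 18.4 to 22.3. Without ZT12 replicate 5 Cd48 passed the any-time test (adjusted p = 0.00886) and ZT12 over ZT6 (-0.27, 0.00845), against -0.16 (0.179) with it. Cd48 and Slamf7 lie next to each other in the SLAM locus of mouse chromosome 1, with 28973 bases between their ends on GRCm38 (GENCODE). Cd9, whose tetraspanin product organises membrane partners including integrins, held 6.00 to 8.27 TMM CPM over all libraries and its 4 means lay between 6.99 and 7.67.

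Partners and relatives of these molecules were counted from lists chosen for their function. Of 19 genes of syndecans and heparan sulfate synthesis 17 were tested and 5 passed the any-time test. Sdc4, another syndecan, was lower at ZT6 (87.3 ± 10.1 TMM CPM) than at ZT0 (137 ± 16.6; SD, n = 5 each), and Ext1, which polymerises the heparan sulfate chain, was higher at ZT12 (21.2 ± 2.55) than at ZT0 (15.7 ± 0.801). Ndst1, which sulfates the chain, was higher at ZT18 (64.5 ± 1.76) than at ZT0 (56.2 ± 1.51). In log2 these were -0.65 (edgeR adjusted p = 4.36e-05), 0.43 (0.00105) and 0.20 (0.00346). Of 11 shedding proteases and inhibitors 9 were tested and 1 passed, Adam10, a sheddase of CD44, with 38.3 ± 2.66 at ZT6 and 46.9 ± 5.46 at ZT0; Mmp9 and Adam17 did not pass (0.0592 and 0.0727).

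Among SLAM relatives 3 of 9 tested passed. Slamf6 had its 4 means in the same order as Pecam1, with 24.6 ± 3.57, 30.2 ± 1.87, 20.9 ± 1.22 and 25.9 ± 2.81 TMM CPM at ZT0, ZT6, ZT12 and ZT18 (SD, n = 5 each), and ZT12 over ZT6 was -0.53 (edgeR adjusted p = 5.30e-05). Sh2d1b1, an adaptor of SLAM receptors, was higher at ZT18 (29.6 ± 2.20) than at ZT6 (22.6 ± 2.55; 0.39, adjusted p = 0.00301), as was Ly9 (39.8 ± 2.57 and 33.2 ± 2.33; 0.26, 0.00156). Slamf7 passed in the same contrast.

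Of 16 tetraspanins 5 passed, in different directions: Tspan13 was highest at ZT6 (307 ± 8.38, against 261 ± 11.8 at ZT0), Cd53 at ZT18 (171 ± 8.41, against 145 ± 11.4 at ZT12), and Tspan17 at ZT0 (4.33 ± 0.860 TMM CPM). Of 8 tested partners of CD44 and cytoskeletal linkers 1 passed, the sparse Ank1 (0.835 ± 0.321 at ZT6, against 0.222 ± 0.156 at ZT0), while Msn and Rdx did not (0.0279 and 0.0384). Of 4 tested partners of CD47, Qpctl, which modifies CD47 for recognition by SIRPα, was lower at ZT18 than at ZT12 (44.5 ± 1.75 and 52.2 ± 1.56; -0.23, edgeR adjusted p = 5.85e-04), opposite in sign to Cd47 in the same contrast. Sirpa, the receptor, was higher at ZT18 than at ZT6 (27.0 ± 1.09 and 21.9 ± 1.62; 0.30, 0.00214), and Thbs1 did not pass (0.659).

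Of 11 tested NAD enzymes related to CD38, 5 passed. Sirt1, a NAD-dependent deacetylase, stood at 24.5 ± 1.70 TMM CPM at ZT18, against 17.8 ± 1.97 at ZT12 (0.46, edgeR adjusted p = 2.34e-05), and Nmnat1, which makes NAD, at 7.85 ± 0.670 and 5.03 ± 0.657 (0.65, 7.06e-04), the same contrast and direction in which Cd38 passed. Parp1, which consumes NAD in DNA repair, was lower at ZT18 (82.6 ± 4.36) than at ZT0 (94.6 ± 4.48; -0.20, 0.00622).

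Among 12 tested adhesion molecules of the immunoglobulin superfamily, Icam1 had the lowest any-time adjusted p of the list (7.27e-09): 42.7 ± 2.55 TMM CPM at ZT0 and 14.9 ± 2.15 at ZT6, with 18.6 ± 3.13 at ZT12 and 23.6 ± 2.86 at ZT18. L1cam also passed (0.00163) and Alcam did not (0.0164). Of 11 integrins 4 passed the any-time test. Itgb3 was lower at ZT12 (28.0 ± 3.50) than at ZT6 (36.8 ± 2.02) and higher again at ZT18 (42.8 ± 2.11), with log2 fold changes of -0.40 (adjusted p = 0.00142) and 0.61 (2.39e-06). Itgb1 was higher at ZT18 (28.9 ± 2.31) than at ZT6 (22.6 ± 1.40), and Itgb7, the partner of the gut homing integrin α4β7, was lower at ZT18 (248 ± 14.4) than at ZT12 (293 ± 14.7). Counted by direction in ZT18 over ZT6, 2 genes each of the heparan sulfate, SLAM, NAD and adhesion lists were higher. The tetraspanin, CD47 and integrin lists each had 1 gene higher, and 1 integrin was lower. In ZT18 over ZT12, 2 SLAM relatives, 2 NAD enzymes, 1 tetraspanin and 1 integrin were higher, and 1 heparan sulfate gene, 1 partner of CD47 and 1 integrin were lower. In ZT12 over ZT0, 1 heparan sulfate gene was higher and 1 adhesion molecule and 1 integrin were lower. In ZT6 over ZT0, 2 heparan sulfate genes, 1 protease, 1 NAD enzyme, 1 adhesion molecule and 1 integrin were lower, and 1 gene each of the SLAM, tetraspanin, CD44, NAD and adhesion lists was higher. The lists were not tested as sets, and their any-time shares stand beside the 19.5% of all genes that passed that test. Over all genes tested, 4.05% were higher and 4.2% lower in ZT18 over ZT6, and 4.80% and 5.14% in ZT18 over ZT12. In ZT12 over ZT0 1.96% were higher and 1.90% lower, and in ZT6 over ZT0 4.65% and 4.13%. With library totals 34.6% of all calls in ZT18 over ZT6 were higher, against 49.1% with TMM.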

How the data were processed

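RNA of 20 sorted IgA+ PC samples (poly-T selection, NEB Next Ultra, paired-end NovaSeq reads) had been counted by the authors. The deposited table of raw counts per gene was the basis of every test, and the deposited FPKM table gave symbols and levels per length. The aligner, build, annotation and strand setting were not given in the sources used here; positions are from GENCODE on GRCm38. The 10 members and all lists were chosen with earlier results of these data known, and the contrast of ZT6 and ZT18 with ZT0 and ZT12 was added after the values were seen.

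Counts were filtered with filterByExpr, scaled by TMM and fitted over all 20 libraries with edgeR 4.0.16 (glmQLFit, robust; R 4.3.3), two-sided, Benjamini-Hochberg adjusted over 13967 genes, call at adjusted p under 0.01. On simulated counts the any-time test called 98.0% of genes changed 2.00-fold and 2 of 13506 unchanged genes. Alternatives were library totals, RLE and TMM without immunoglobulin genes, other filters, DESeq2 1.42.0, limma 3.58.1 on log2(FPKM + 1), JTK, a replicate block, marker covariates and leaving libraries out. No 2 libraries of a time agreed within sampling noise. Named genes were the 10 members, the 3 genes of each list with the smallest any-time p, and the 2 genes whose log2 TMM CPM correlated best with a member. Depth was 35570619 to 68018407 counts per library.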

Additional observations from a re-analysis of the deposited data

Results flagged for a closer look

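Of 52 groups of 5 libraries examined (the 10 genes and 3 marker sums at each time), 2 held a library far from the other 4, its gap to the nearest exceeding 0.71 of the group's range, and chance gives about 1 in 20. For Cd48 at ZT12, replicate 5 held 24.1 TMM CPM and the next library 17.9, a gap of 0.917 of the range; the same library held the most heat shock counts, 5112 TMM CPM, whose part in the value was not tested. For the epithelial marker sum at ZT6, replicate 4 held 42.3 TMM CPM and the next library 16.8, a gap of 0.728 of the range, and Epcam stood at 53.9 TMM CPM in that library and at 54.1 in replicate 5, where the sum was 7.57.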

How the results depend on the processing

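No difference of a member that passed in either fit changed sign under any alternative. Over 1080 comparisons of a member's result with another setting, 60 lost the call and 24 gained it. Over 1800 comparisons of a member's result with a fit without 1 library, 48 lost it and 17 gained it. The cause was not tested. The members' counts of calls moved as follows. Library totals gave 1 for ZT6 over ZT0, 4 for ZT12 over ZT0, 1 for ZT18 over ZT0, 4 for ZT12 over ZT6 and 0 for ZT18 over ZT6. TMM without immunoglobulin genes gave 1 for ZT12 over ZT0 and 2 for ZT18 over ZT6. No filter gave 3 for any time, 0 for ZT18 over ZT6 and 1 for the 24-hour cosine. Without the 3 libraries richest in epithelial markers, and likewise with that sum as a covariate, ZT6 over ZT0 gave 1 and ZT18 over ZT12 gave 2. Chosen after seeing the data, leaving out the 3 libraries richest in heat shock counts gave 2 for ZT18 over ZT12 and 1 for the cosine, and the immediate early covariate gave 3 for any time and 0 for ZT6 over ZT0, ZT18 over ZT0, ZT12 over ZT6, ZT18 over ZT12 and the 12-hour term. DESeq2 gave 1 for ZT12 over ZT0 and 2 for ZT18 over ZT6. limma on FPKM gave 1 for ZT6 over ZT0, ZT12 over ZT0 and ZT18 over ZT0, and 0 for ZT18 over ZT6. For the cosine, the terms alone gave 1 and JTK 0. Without 1 library the counts ranged 3 to 6 for any time, 1 to 2 for ZT6 over ZT0, 0 to 1 for ZT12 over ZT0, 2 to 3 for ZT18 over ZT0, 2 to 3 for ZT12 over ZT6, 1 to 2 for ZT18 over ZT6, 2 to 4 for ZT18 over ZT12, 2 to 3 for the cosine and 2 to 2 for the 12-hour term. The replicate block gave 1 for ZT12 over ZT0 (Epcam, adjusted p = 0.00733) and ended the call of Slamf7 in ZT18 over ZT0 (0.0105); the numbers do not pair the animals, since 0 of 30 same-number pairs correlated above 0.1 and 3 of 20 libraries correlated best with their own number.

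Counts over all genes that moved by more than 1.5 times were, with library totals, 687 against 1226 for ZT6 over ZT0, 959 against 539 for ZT12 over ZT0, 686 against 1057 for ZT18 over ZT0, 690 against 1151 for ZT18 over ZT6 and 810 against 1320 for the 12-hour term, and the share of higher calls for ZT12 over ZT0 was then 3.96% against 50.8% with TMM. Without the 3 epithelial-rich libraries they were 363 against 640 for ZT12 over ZT6 and 877 against 1320 for the 12-hour term, and with that sum as a covariate 297 against 539 for ZT12 over ZT0. Without the 3 heat shock-rich libraries ZT12 over ZT6 gave 289 against 640. With the immediate early covariate they were 1492 against 2727 for any time, 23 against 1226, 28 against 1057, 3 against 640 and 458 against 1388 for ZT6 over ZT0, ZT18 over ZT0, ZT12 over ZT6 and ZT18 over ZT12, and 1 against 1320 for the 12-hour term. limma on FPKM gave 522 against 1226, 460 against 1057, 558 against 1151 and 625 against 1320 for ZT6 over ZT0, ZT18 over ZT0, ZT18 over ZT6 and the 12-hour term, and for the cosine the terms alone gave 995 and JTK 123 against 1578.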

Other observations

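The genes whose log2 TMM CPM ran most alike with each of the 10 over the 20 libraries, among 7781 genes with a mean of at least 5 TMM CPM, are given as a description with no test, since libraries share depth, time and handling and the closest of many genes is close by selection. Cd44 ran closest to Eif2ak3, the ER stress sensor PERK (Pearson r = 0.961), and to Sec24a, a coat protein of vesicles leaving the ER (0.947). Pecam1 ran closest to Slc37a1 (0.929) and Rhobtb1 (0.912). Slamf7 ran closest to Eif4g2, a translation initiation factor (0.911), and Ywhag (0.883), and Epcam to Eif2b5 (0.835) and Aldoa (0.800). For Cd47 the nearest were Padi2 (0.857) and Rsad2, an interferon-induced antiviral gene (0.809), and for Cd38 Pde7a (0.836) and Prkx (0.778). Sdc1 (Unkl, 0.740), Cd93 (Lzts2, 0.719), Cd48 (Tfam, 0.731) and Cd9 (Vgll4, 0.759) had no gene above 0.760.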
